A study of Citrus x clementina and Citrus japonica with 6 samples.

Results

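Abscisic acid is a plant hormone whose level is set largely by its making and its breakdown. The 9-cis-epoxycarotenoid dioxygenases (NCED) cut 9-cis-epoxycarotenoids in plastids to give xanthoxin, the step commonly taken as limiting for synthesis, and the abscisic acid 8'-hydroxylases, cytochrome P450 enzymes, start the main route of breakdown towards phaseic acid. In citrus fruit the hormone is known for its rise during ripening and for its link with peel colour and with the response to water loss. The gene models examined here were those whose first KEGG orthology name in the deposited table is either enzyme, 12 of 30139 models: 6 named NCED and 6 named 8'-hydroxylase. No model carried either name in a later position.

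The levels came from RNA-seq of pooled fruit, with 3 libraries of kumquat (Fortunella japonica in the series title, Citrus japonica in the organism label, a citrus relative with small fruit) and 3 libraries of Clementine mandarin, Citrus x clementina. Neither fruit was treated, and both were grown in the same fields. Each library pooled fruit of 5 stages. Counted from flowering, fruit was taken on days 15, 30 and 45 in both species, then on days 80 and 120 in kumquat and on days 100 and 180 in clementine, so species and the age of the later fruit cannot be told apart. The stage label of the kumquat libraries names the fruit as clementine, while their cultivar label and organism say kumquat. The design text says that material came from 3 individual plants but ties no library to a plant, so p-values measure the spread between these libraries. In pooled fruit, fewer cells of a type and less RNA per cell cannot be told apart.

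Levels are in FPKM, fragments scaled to model length and to library size, which the authors computed. FPKM summed to between 691560 and 707892 in kumquat and between 695322 and 700617 in clementine libraries. From the steps between low values, depth relative to clementine replicate 2 was between 0.87 and 0.92 in kumquat and between 0.96 and 1.01 in clementine. All models carry clementine identifiers, and what sequence differences between the species do to these levels was not tested. Of 4 models matching the fixed seed markers, all were higher in kumquat, with sums of 2469 to 2973 FPKM in kumquat and 645 to 809 FPKM in clementine. The most abundant of them was Ciclev10006308m, matched to the late embryogenesis abundant protein Lea5, at 2618 FPKM in kumquat and 701 FPKM in clementine. It made up most of the sums, so they mainly follow this model and do not measure the amount of seed. Ciclev10027019m, vicilin-like, averaged 83.2 FPKM in kumquat and 30.6 FPKM in clementine. Ciclev10006365m, also Lea5, stood at 35.2 and 6.18 FPKM, and Ciclev10007181m, basic 7S globulin-like, at 1.82 and 0.84 FPKM. None of the 4 matches is named oleosin or legumin, which the fixed list also held. Of 68 tested models of the green tissue markers, 9 were higher and 34 lower in kumquat, with sums of 11124 to 12459 FPKM in kumquat and 12856 to 14105 FPKM in clementine. Over all tested models 57.1% were called, 29.9% higher and 27.1% lower in kumquat, and the counts of both marker lists are read beside that share. No model of either marker list was at 0 in all 6 libraries, and the part of these tissues in the results below was not tested.

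The names were checked against the other annotations of the table. Among the NCED models, Ciclev10014639m, Ciclev10031003m and Ciclev10019364m carry the Gene Ontology term for oxidoreductases that act on single donors with incorporation of molecular oxygen, the chemistry of a dioxygenase. Ciclev10028113m, Ciclev10006710m and Ciclev10011335m carry no function term, and the protein match of Ciclev10011335m is CCD4C of Citrus maxima, a carotenoid cleavage dioxygenase of another subfamily. The KEGG name thus groups models whose other annotations differ. Among the hydroxylase models, 4 of 6 carry the term iron ion binding, which P450 enzymes have. All 4 are matched to hypothetical proteins, and neither match nor function term names the 8'-hydroxylase. Ciclev10011655m is among them. Ciclev10028355m carries no function term but is matched to an abscisic acid 8'-hydroxylase 4-like protein of Citrus sinensis. The match of Ciclev10028581m carries the locus name of Ciclev10028355m, and the table does not say whether these 2 models are forms of the same gene. No member shared its protein match with any other model, and 7 of 12 matched a RefSeq gene of the clementine assembly by protein accession, 1 of them through another version of it.

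Fruit of both species held NCED transcripts at about the same summed level, whereas 8'-hydroxylase transcripts summed to 2.50 times as much in kumquat. That excess rests on Ciclev10011655m, whose protein match and function terms do not name the 8'-hydroxylase. The NCED sum counts Ciclev10028113m, which carries no function term. It was the only NCED model called lower, at 13.9 FPKM in kumquat and 32.6 FPKM in clementine, and the near-equal sum depends on counting it. The models within each family moved in opposite directions. Of the 8 members that reached 1 FPKM in 3 or more libraries, 6 passed an adjusted p of 0.05 (limma, Benjamini-Hochberg), 4 higher and 2 lower in kumquat. Over all 22050 models tested, 57.1% were called, 29.9% higher and 27.1% lower, so the share of members called is read against a high background. The median change of the 8 members was 0.54 on the log2(FPKM + 1) scale, beside 0.04 for all tested models. Each of the 8 stood above 1 FPKM in all 6 libraries, so none passed the filter through 1 species alone.

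**Figure D1:**
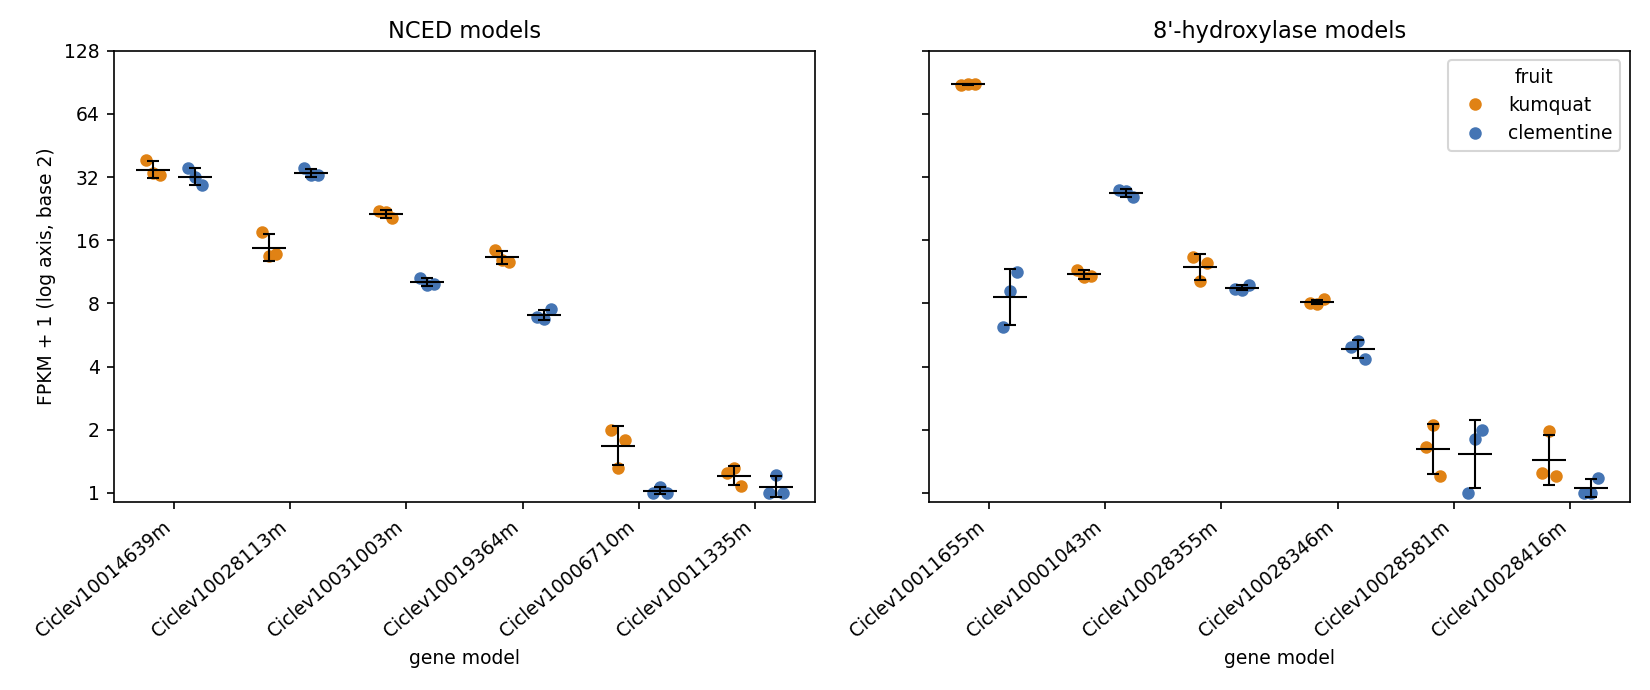
FPKM + 1 of the 12 gene models on a log axis, kumquat left of clementine for each model, with 1 point per library. Horizontal bars are means and error bars SDs, both computed on the log2 scale (n = 3 libraries per species). Kumquat libraries of Ciclev10011655m lie at 86.9 to 88.0 FPKM, above every other point, while the 2 right-most models of each family are near 0.

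Among the NCED models, Ciclev10014639m was the most abundant over all libraries. Its level was 37.7, 32.3 and 31.6 FPKM in kumquat libraries and 34.3, 31.0 and 28.4 FPKM in clementine libraries. The groups overlapped, and the change of 0.11 ± 0.10 (SE) on the log2 scale was not called (limma adjusted p = 0.351). The 95% interval of the change ran from -0.12 to 0.34, which bounds the difference but does not show equal levels.

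Ciclev10028113m, the most abundant of the 3 NCED-named models without a function term, fell in kumquat. It stood at 16.4, 12.4 and 12.8 FPKM in kumquat libraries and at 34.2, 31.9 and 31.6 FPKM in clementine libraries. All kumquat libraries lay below all clementine libraries, and the clementine mean was 2.35 times the kumquat mean. The log2 change was -1.18 ± 0.11 (SE; limma adjusted p = 9.45e-05).

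Ciclev10031003m rose in kumquat, with 21.0, 20.7 and 19.3 FPKM in kumquat libraries and 9.58, 8.83 and 8.92 FPKM in clementine libraries. Every kumquat library was more than any clementine library, and the ratio of means was 2.23. The log2 change was 1.08 ± 0.09 (SE; limma adjusted p = 4.00e-05). Ciclev10019364m also rose, at 13.4, 11.9 and 11.7 FPKM in kumquat libraries and 5.89, 5.74 and 6.53 FPKM in clementine libraries, a ratio of means of 2.04. Its log2 change was 0.92 ± 0.11 (SE; limma adjusted p = 0.000359), and its groups did not overlap either. These 2 models and Ciclev10014639m, which was not called, are the 3 with the dioxygenase term.

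The remaining NCED models were close to 0 and were not tested. Ciclev10006710m was at 0.99, 0.32 and 0.79 FPKM in kumquat libraries and listed at 0, 0.07 and 0 in clementine libraries, so all kumquat values lay above all clementine values. Ciclev10011335m, the model matched to CCD4C, reached at most 0.31 FPKM in kumquat and 0.22 FPKM in clementine.

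Among the 8'-hydroxylase models, Ciclev10011655m differed most between the fruits. It stood at 86.9, 87.8 and 88.0 FPKM in kumquat libraries and at 5.15, 8.16 and 10.3 FPKM in clementine libraries. The kumquat libraries were nearly equal and the clementine libraries spread widely, with no overlap and a ratio of means of 11.2. The log2 change was 3.37 ± 0.20 (SE; limma adjusted p = 8.13e-06). With its sign counted, it was above that of 99.2% of all tested models, a rank in which every decrease, of whatever size, lies below it. The model ranked above 95.2% of all models by mean level in kumquat and above 59.3% in clementine. Its SD on the log2 scale was 0.0091 in kumquat, beside a median of 0.084 for tested models within 0.5 of its level there. In clementine its SD was 0.44, beside a median of 0.16, larger than that of 93.1% of models of like level. Leaving out any single library kept the change between 3.13 and 3.56. The sums of the seed markers, which are mostly Ciclev10006308m, and of the green tissue markers differed between the same groups. Their part in this change was not tested.

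Ciclev10001043m moved the other way. It stood at 10.6, 9.68 and 9.75 FPKM in kumquat libraries and at 26.8, 26.4 and 24.6 FPKM in clementine libraries. No kumquat library reached any clementine library, and the clementine mean was 2.59 times the kumquat mean. It fell by 1.29 ± 0.08 (SE) on the log2 scale (limma adjusted p = 1.23e-05).

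Ciclev10028346m rose at a lower level, with 7.03, 6.99 and 7.37 FPKM in kumquat libraries and 3.96, 4.28 and 3.36 FPKM in clementine libraries. Its groups did not overlap, the ratio of means was 1.84 and the log2 change 0.74 ± 0.14 (SE; limma adjusted p = 0.00260). Ciclev10028355m, the model matched to a named 8'-hydroxylase 4-like protein, stood at 12.4, 9.22 and 11.4 FPKM in kumquat libraries and 8.38, 8.29 and 8.80 FPKM in clementine libraries. All kumquat values exceeded all clementine values, yet the log2 change of 0.33 ± 0.13 (SE) was not called (limma adjusted p = 0.0603). Its 95% interval, not adjusted for the number of models, ran from 0.03 to 0.63. Without kumquat replicate 2, its lowest kumquat library, the change was 0.44 and was called (limma adjusted p = 0.0224). When FPKM was summed over models that share a match, its own values stayed the same and it was also called (limma adjusted p = 0.0459). Groups that did not overlap were common, at 63.9% of all tested models.

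The other hydroxylase models were barely detected and not tested. Ciclev10028581m was at 0.66, 1.11 and 0.21 FPKM in kumquat libraries and at 0, 0.81 and 0.99 FPKM in clementine libraries, and its groups overlapped. Ciclev10028416m was at 0.24, 0.97 and 0.20 FPKM in kumquat libraries, against 0, 0 and 0.18 FPKM in clementine libraries. Adding Ciclev10028581m to Ciclev10028355m, the model whose locus name it carries, gave a log2 change of 0.32 that was not called (limma adjusted p = 0.0517).

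**Figure D2:**
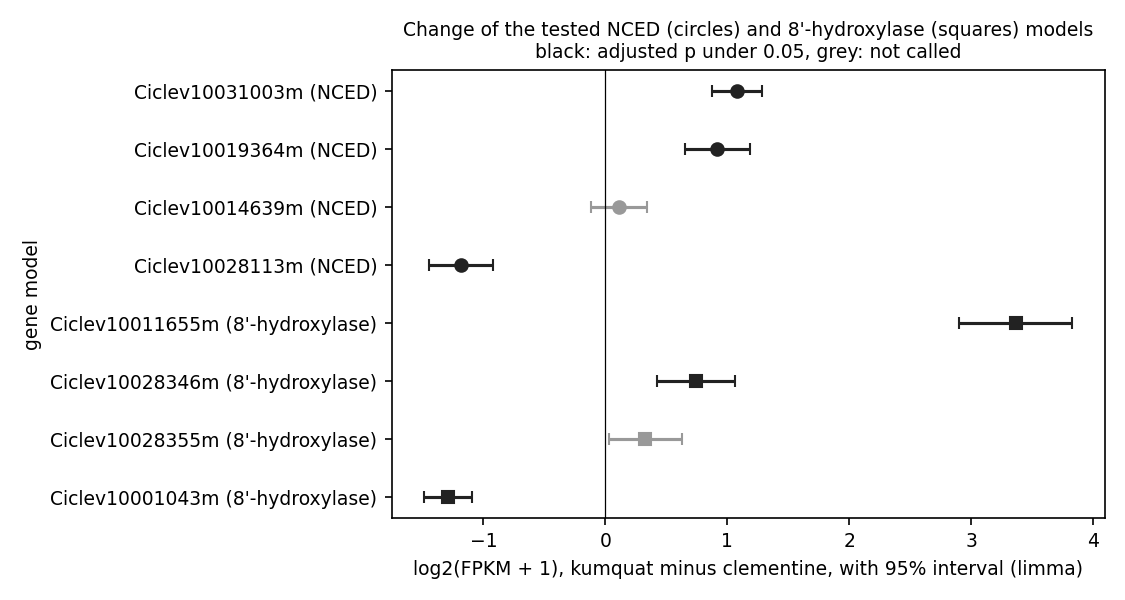
Change of the 8 tested models, kumquat minus clementine, in log2(FPKM + 1), with the 95% interval from limma. Circles are NCED and squares 8'-hydroxylase models, black for an adjusted p under 0.05 and grey for models not called. Each family holds a model on the lower side and 2 called models on the higher side, and the change of 3.37 of Ciclev10011655m stands apart from the others, which lie between -1.29 and 1.08.

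FPKM is scaled to model length, so levels can be set side by side between models. In kumquat the NCED models ranked in the order Ciclev10014639m (33.9 ± 3.34 FPKM), Ciclev10031003m (20.3 ± 0.889), Ciclev10028113m (13.9 ± 2.22) and Ciclev10019364m (12.3 ± 0.965; SD, n = 3 each), with overlap between the last pair. In clementine the order was Ciclev10028113m (32.6 ± 1.40 FPKM), Ciclev10014639m (31.2 ± 2.95), Ciclev10031003m (9.11 ± 0.410) and Ciclev10019364m (6.05 ± 0.420; SD, n = 3 each), where the first pair overlapped. Ciclev10028113m thus shared the top level in clementine and ranked behind Ciclev10031003m in every kumquat library.

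The hydroxylase models changed rank more sharply. In kumquat Ciclev10011655m (87.6 ± 0.558 FPKM) stood above Ciclev10028355m (10.99 ± 1.61), Ciclev10001043m (10.01 ± 0.512) and Ciclev10028346m (7.13 ± 0.209; SD, n = 3 each), and Ciclev10028355m and Ciclev10001043m overlapped. In clementine Ciclev10001043m (25.9 ± 1.16 FPKM) stood above Ciclev10028355m (8.49 ± 0.272), Ciclev10011655m (7.85 ± 2.56) and Ciclev10028346m (3.87 ± 0.467; SD, n = 3 each), where Ciclev10028355m and Ciclev10011655m overlapped.

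Shares of the family sum give the same shift without dependence on library scaling. Ciclev10011655m made up 73.8 to 75.8% of the 8'-hydroxylase FPKM of each kumquat library and 11.6 to 21.3% in clementine libraries. Ciclev10001043m made up 8.34 to 9.0% in kumquat libraries and 51.1 to 60.5% in clementine libraries. The leading hydroxylase model was therefore a different one in each species, in all 3 libraries of each. Among NCED models, Ciclev10028113m held 15.9 to 18.3% in kumquat and 40.7 to 41.9% in clementine libraries. Ciclev10031003m held 23.4 to 26.6% in kumquat and 11.4 to 11.8% in clementine libraries, and Ciclev10019364m 15.0 to 15.3% in kumquat and 7.02 to 8.65% in clementine libraries. The share of Ciclev10014639m was 41.4 to 42.0% in kumquat and 37.6 to 40.8% in clementine libraries, the narrowest shift of the 4.

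Ratios between members within a library were compared for all 12 pairs of tested models of the same family. The ratio of Ciclev10011655m to Ciclev10001043m was 8.20, 9.07 and 9.03 in kumquat libraries and 0.192, 0.309 and 0.416 in clementine libraries. The ratio of Ciclev10028113m to Ciclev10031003m was 0.784, 0.599 and 0.662 in kumquat libraries and 3.57, 3.61 and 3.55 in clementine libraries. In 11 of 12 pairs the ratios of the species did not overlap. The pairs reuse 8 models and are not separate observations, and 63.9% of all tested models did not overlap singly. The exact two-sided permutation test over 3 against 3 libraries then gives p = 0.10, the smallest it can give, so no pair could pass the threshold. Adjusted over the 12 pairs, the smallest p was 0.109. The exception was Ciclev10031003m over Ciclev10019364m, with ratios of 1.56, 1.74 and 1.66 in kumquat libraries and 1.63, 1.54 and 1.37 in clementine libraries (exact permutation p = 0.20).

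Summed over its 6 models, NCED stood at 89.8, 77.9 and 76.2 FPKM in kumquat libraries and 83.9, 77.7 and 75.5 FPKM in clementine libraries. The means were 81.3 ± 7.38 FPKM in kumquat and 79.0 ± 4.38 FPKM in clementine (SD, n = 3 each), a difference smaller than the spread within either species. Its direction changed without kumquat replicate 1, at -0.036 on the log2 scale. The 8'-hydroxylase models summed to 117.8, 115.7 and 116.9 FPKM in kumquat libraries and to 44.3, 48.0 and 48.2 FPKM in clementine libraries. The means of 117 ± 1.05 FPKM in kumquat and 46.8 ± 2.20 FPKM in clementine (SD, n = 3 each) came from libraries that did not overlap. No p is given for sums over chosen members.

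The higher hydroxylase sum in kumquat rested on Ciclev10011655m, for which neither protein match nor function term names the 8'-hydroxylase. Without this model, the others summed to 29.3 ± 1.49 FPKM in kumquat and to 39.0 ± 0.931 FPKM in clementine (SD, n = 3 each), so the direction was the opposite. The summed 8'-hydroxylase level over the summed NCED level was 1.31, 1.49 and 1.53 in kumquat libraries and 0.528, 0.617 and 0.639 in clementine libraries. Hydroxylase transcripts thus outnumbered NCED transcripts per length in every kumquat library and were outnumbered in every clementine library. Both statements count Ciclev10028113m, the NCED model lower in kumquat, and the ratio without it was not computed. The statement for clementine depends on it in replicates 2 and 3. There it held 31.9 and 31.6 FPKM of NCED sums of 77.7 and 75.5 FPKM, beside hydroxylase sums of 48.0 and 48.2 FPKM. The sums and ratios are of transcript levels, and hormone and enzyme activity were not analysed here.

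**Figure D3:**
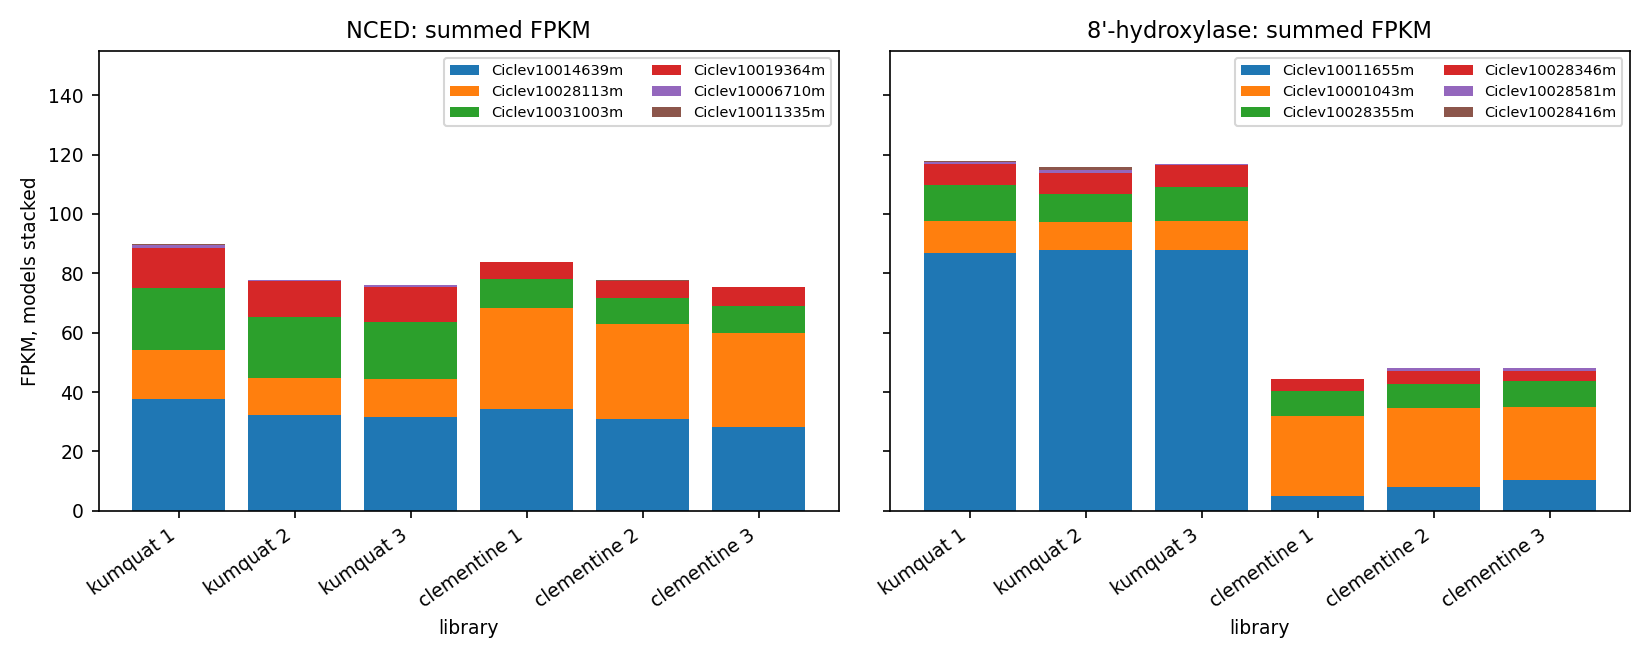
FPKM of the 6 models of each family stacked by library, 3 kumquat libraries left of 3 clementine libraries, each colour being a gene model. NCED bars reach 75.5 to 89.8 FPKM in all libraries with a different make-up by species, and 8'-hydroxylase bars reach 115.7 to 117.8 FPKM in kumquat and 44.3 to 48.2 FPKM in clementine, most of the kumquat bar being Ciclev10011655m.

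The models whose profiles over the 6 libraries were closest to the leading member of each family were found by the root mean square difference of centred log2(FPKM + 1) values, among 9516 KEGG-named models that averaged 10 FPKM or more in either species. For Ciclev10011655m they were Ciclev10009297m, named transcription factor MYC2 (difference 0.059), Ciclev10022177m, named a DnaJ homolog (0.11), and Ciclev10025492m, named aldehyde dehydrogenase (0.16). Ciclev10009297m stood at 89.7, 97.3 and 98.5 FPKM in kumquat libraries and at 6.04, 9.33 and 10.6 FPKM in clementine libraries. For Ciclev10014639m they were Ciclev10000220m, named nitrate reductase (0.017), Ciclev10018676m, named epsin (0.029), and Ciclev10026584m, named methylene-fatty-acyl-phospholipid synthase (0.033). With 3 libraries per species, a close profile means mainly a like change between species. The log2 changes were 3.34, 3.39 and 3.39 for the first 3 models and 0.11, 0.13 and 0.17 for the last 3. Shared regulation was not tested.

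Other steps of the pathway were taken from 8 lists of KEGG names. Of 97 tested models in all of them, 26 were higher, 25 lower and 46 not called, with a median log2 change of 0.07. The share called was 52.6%, beside 57.1% of all tested models (29.9% higher and 27.1% lower), so the counts of these lists are descriptions and not set apart from the background. In 6 of the 97 models no library of 1 species reached 1 FPKM, so they entered the test through the species where they were high and had to differ. Of these, 1 was higher and 5 were lower, and without them 25 of 91 were higher and 20 lower. Upstream of NCED, the list for the supply of epoxycarotenoids had 2 of 12 models higher and 6 lower, with a median of -0.33. It joins 9 tested zeaxanthin epoxidase models (2 higher, 4 lower) with 1 capsanthin/capsorubin synthase model (lower). It also holds 2 violaxanthin de-epoxidase models (1 lower), which by name act against that supply. The synthase is named for capsanthin and capsorubin and not for an epoxycarotenoid that NCED cuts. The count of the list thus has no single direction of supply. Of the 6 lower models, Ciclev10008565m was listed at 0 in all kumquat libraries, and without it 5 of 11 were lower, with a median of -0.27. Ciclev10008369m, named zeaxanthin epoxidase, which makes violaxanthin, was the most abundant lower model at 44.9 ± 2.22 FPKM in kumquat and 681.5 ± 36.9 FPKM in clementine. Ciclev10010634m, of the same name, was higher at 34.4 ± 8.12 FPKM in kumquat and 10.3 ± 1.10 FPKM in clementine. Other carotenoid cleavage enzymes had 1 of 4 higher, Ciclev10031039m (log2 change 0.58), and 1 lower, Ciclev10031014m (-0.99). Steps after xanthoxin had 5 of 21 higher and 6 lower. They include Ciclev10012535m, named xanthoxin dehydrogenase, at 54.0 ± 1.58 FPKM in kumquat and 27.3 ± 1.78 FPKM in clementine, and Ciclev10016075m, named molybdenum cofactor sulfurtransferase, with a change of -0.73.

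Conjugation to glucose, another route that removes the free hormone, had a single model. Ciclev10028334m, named abscisate beta-glucosyltransferase, stood at 12.8, 16.04 and 15.2 FPKM in kumquat libraries and at 1.37, 1.92 and 2.16 FPKM in clementine libraries. It rose by 2.48 ± 0.17 (SE) on the log2 scale (limma adjusted p = 1.48e-05).

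Among the PYR/PYL receptors, which bind the hormone, 2 of 8 models were higher and 3 lower, among them Ciclev10022353m (log2 change 0.87) and Ciclev10032781m (-0.49). The protein phosphatases 2C, the family that holds the pathway's repressors, had 6 of 21 higher and 6 lower, led in level by Ciclev10028495m (1.06) and Ciclev10031682m (-0.45). The SRK2 kinases, which those phosphatases hold back, had 4 of 12 higher and 2 lower, including Ciclev10028703m (0.35) and Ciclev10025965m (-0.32). The ABA responsive element binding factors, their transcription factor targets, had 5 of 18 higher and 1 lower. The highest of these, Ciclev10028442m, changed by 0.37. The lower model, Ciclev10028447m, was listed at 0 in all kumquat libraries and at 5.49, 8.40 and 8.65 FPKM in clementine libraries. It passed the filter through clementine alone and left the fit when any clementine library was left out, and its fitted change was -3.07, or -6.22 with a pseudocount of 0.1. Both share a protein match with a further model, and the sum of the 3 was 99.9 ± 2.54 FPKM in kumquat and 87.7 ± 4.36 FPKM in clementine (log2 change 0.19, limma adjusted p = 0.0205).

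**Figure D4:**
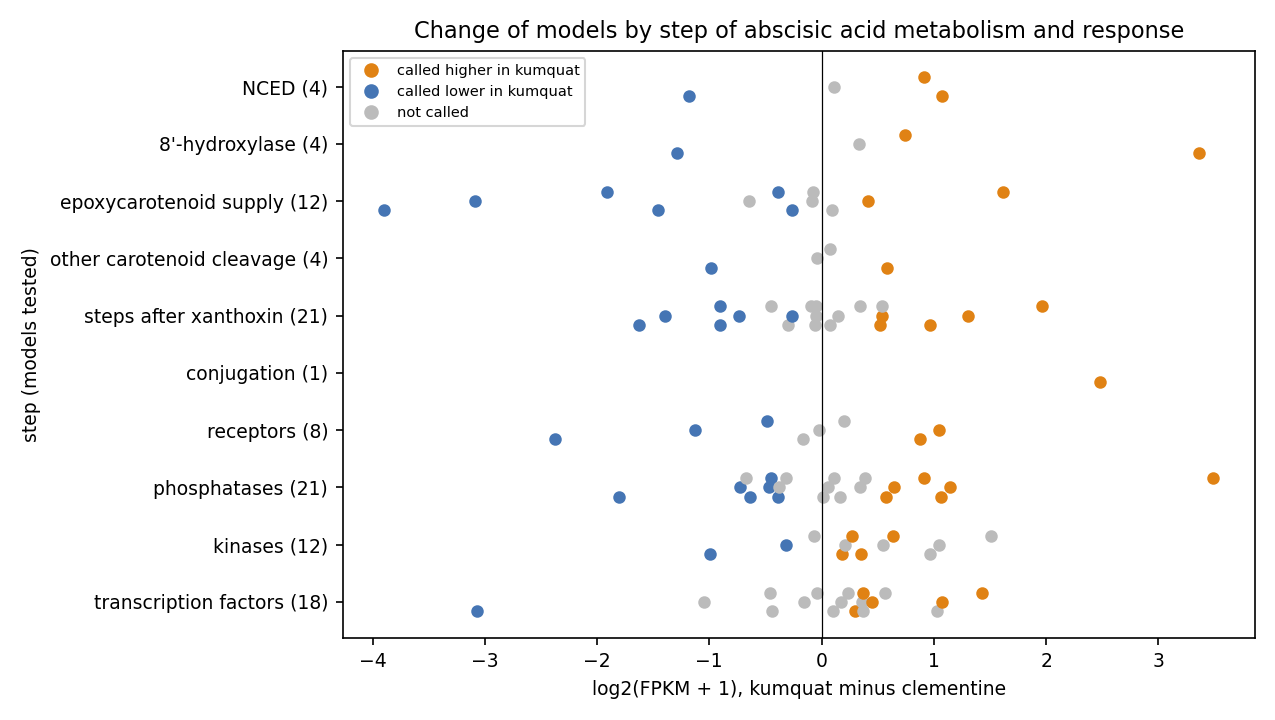
Change of each tested model, kumquat minus clementine, in log2(FPKM + 1), by step of abscisic acid metabolism and response, with the number tested in brackets. Orange points were called higher in kumquat, blue points lower, and grey points were not called; vertical offsets separate points only, and the position of a model listed at 0 depends on the pseudocount. Every step with more than 1 model has called models on both sides of 0, for the transcription factors only through Ciclev10028447m, and Ciclev10011655m at 3.37 lies farthest to the right of the 2 turnover families.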

How the data were processed

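The deposited table gives FPKM per gene model for 6 libraries, computed by the authors and written with 2 decimals, per the file headers. HISAT, StringTie and DESeq2 are named in the submitters' processing notes without versions or roles. The genome build is not given in the sources used here. FPKM are not counts, so no count test was run and total depth is unknown; relative depth was read from ratios of values between 0.2 and 1 FPKM.

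Models that reached 1 FPKM in 3 or more libraries entered the fit, made on log2(FPKM + 1) by limma 3.58.1 (R 4.3.3; mean-dependent prior, contrast kumquat minus clementine, no covariate, two-sided). Adjustment was Benjamini-Hochberg over all tested models, with a threshold of 0.05. The pseudocount understates changes of low models. Members and lists were chosen with earlier results of these data known. All members are named, as are the most abundant called model per list and direction and the 3 closest profiles to each family's most abundant member. Alternatives are given in the closing section. The replicate numbers in the titles do not tie libraries together.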

Additional observations from a re-analysis of the deposited data

How the results depend on the processing

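The 6 members called kept their direction and their call with a pseudocount of 0.1, with no filter, with a filter of 5 FPKM, after median scaling, with the replicate number as a block, without each library in turn and when FPKM was summed over models that share a match. Over these alternatives 6 to 7 members, 42 to 55 models of the pathway lists and 9919 to 12997 of all models were called. Ciclev10006710m was the added member with no filter (adjusted p = 0.0156, limma), and Ciclev10028355m the added one in the 2 cases given above. The summed NCED difference, 0.041 on the log2 scale, was -0.012 without the most abundant member and -0.036 to 0.086 without single libraries. No alternative left out Ciclev10028113m, the NCED model called lower. Without the most abundant member of each family, the summed 8'-hydroxylase difference was -0.41, against 1.32 with it, and the difference in their ratio to NCED was -0.40, against 1.28. Summing Ciclev10028581m with Ciclev10028355m was chosen after seeing the data. With the replicate block 12944 models and 6 members were called. Same-numbered libraries correlated in their deviations from the species mean at 0.12, 0.042 and 0.066, each best with its own number, a hint from the data and not from the design. Unknown depth limits what can be said of the 4 members near 0.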

Other observations

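The 10 models named zeaxanthin epoxidase summed to 349 ± 16.5 FPKM in kumquat and to 1584 ± 71.4 FPKM in clementine (SD, n = 3 each), while the NCED sums differed by less than their spread. Ciclev10008369m and Ciclev10008384m, at 71.2 FPKM in kumquat and 610.9 FPKM in clementine, carried most of the gap. The other 8 models summed to 233 ± 10.2 FPKM in kumquat and 291.5 ± 10.2 FPKM in clementine (SD, n = 3 each), and of 9 tested models of this name 2 were higher and 4 lower. These sums rest on the KEGG name alone, were chosen after their values were seen and have no test. Among the receptors, also singled out after their values were seen, Ciclev10005981m stood at 33.2 ± 3.09 FPKM in kumquat and 15.6 ± 1.52 FPKM in clementine, and Ciclev10032973m at 4.96 ± 1.75 FPKM in kumquat and 29.2 ± 5.00 FPKM in clementine. Their log2 changes were 1.05 (limma adjusted p = 0.000102) and -2.37 (limma adjusted p = 0.000135). Ciclev10022440m, another receptor model, stood at 51.0 ± 0.665 FPKM in kumquat and 51.9 ± 1.49 FPKM in clementine and was not called (limma adjusted p = 0.712).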
